A study of Mus musculus with 16 samples.

Results

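The carboxylesterases are hydrolases that cut ester and amide bonds, and 10 genes of the family that are active in mouse liver (Ces1c, Ces1d, Ces1e, Ces1f, Ces1g, Ces2a, Ces2c, Ces2e, Ces3a and Ces3b) were taken by their symbols from a table of 47069 genes. The table held 10 further genes of the family, which are used here for comparison. Most carboxylesterases stay in the lumen of the endoplasmic reticulum, where a signal at the end of the protein is held by KDEL receptors. There they activate or inactivate drugs that carry an ester, and several of them break down stored triglyceride, which feeds the assembly of very low density lipoprotein (VLDL). Mice carry many copies of the Ces1 and Ces2 types where humans have few, and the mouse plasma enzyme encoded by Ces1c is secreted.

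Transcripts were counted by mRNA sequencing in 16 libraries, made from mouse liver and liver tumours. All the mice, controls included, had been given diethylnitrosamine (DEN), a carcinogen that hepatocytes activate and that induces hepatocellular carcinoma, so none of the groups shows untreated liver. The groups were tumours at 9 months under a high-fructose diet (n = 3) or a cornstarch diet (n = 2), liver at 9 months under fructose (n = 3) or cornstarch (n = 3), and liver at 5 months under fructose (n = 2) or cornstarch (n = 3). Cornstarch, a glucose polymer, is the control carbohydrate. Strain, sex and DEN dose are not given in the sources used here. Nothing says which libraries are from different mice either, so a p-value reflects only how these libraries vary, which may be partly technical.

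Depth was 11232461 to 38377674 reads per library, and the 10 genes together took 0.169% to 0.798% of them. Each gene had reads in all 16 libraries and passed the filter on low values. Of a list of 15 hepatocyte markers 14 were in the table under these symbols, 0 of them were at 0 throughout a group, and their mean log2 level was 15.36 to 16.08 in fructose tumours, 16.10 to 16.63 in cornstarch tumours, 15.85 to 16.14 in 9-month fructose livers and 15.94 to 16.27 in 9-month cornstarch livers. Replicate 1 of the 5-month fructose livers and replicate 1 of the 5-month cornstarch livers carried Xist, at 12936 and 10883 normalised counts, with a summed Y-linked level of 0 and 1.91. These 2 XX libraries stand apart from the 14 with Y-linked signal, and results that rest on them are also given without them. In bulk tissue, fewer cells of a type and less RNA per cell cannot be told apart.

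The 10 genes lie in 2 clusters on chromosome 8 (GRCm38). Ces1c, Ces1d, Ces1e, Ces1f and Ces1g lie in that order on the minus strand at chr8:93099015-93337308, over 238 kb. Ces2a, Ces2c, Ces2e, Ces3a and Ces3b lie on the plus strand at chr8:104734003-105093929, over 360 kb, and 11.4 Mb separates the clusters. All 10 are protein coding. Near-identical stretches can make the split of reads between copies uncertain: 42.2% of the 50-base stretches of the Ces2c transcript also occur in transcripts of other genes, mostly in the pseudogene Ces2d-ps (38.2%), whose own level was at most 20.0 normalised counts. The share was 30.9% for Ces3a and 26.1% for Ces3b, which share with each other, 22.2% for Ces2a, 17.0% for Ces1c and 1.28% to 3.36% for the other 5. Ces3a overlaps an antisense gene (Gm45724) and Ces1d a gene on its own strand (Gm45909), and whether counting used the strand is not given in the sources used here.

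Levels below are normalised counts, that is reads divided by 1 factor per library. Fold changes compare means of log2(normalised count + 1), with their standard error (SE) and the limma p adjusted over all genes tested by Benjamini and Hochberg, and an adjusted p under 0.05 is called a change. Between genes, levels are compared only per kilobase (kb) of exon. Ces1c had the highest mean level per kb of the 10 genes in all 6 groups, at 10652 in fructose tumours, 10058 in cornstarch tumours, 18343 in 9-month fructose livers, 16021 in 9-month cornstarch livers, 15850 in 5-month fructose livers and 25932 in 5-month cornstarch livers. Ces3a ranked second in all 4 liver groups, and in 9-month cornstarch livers its range per kb (9532 to 17412) overlapped that of Ces1c (14068 to 19108). In both tumour groups Ces2e ranked second by mean in place of Ces3a, at 5968 per kb under fructose and 6390 under cornstarch. Under cornstarch the ranges of Ces2e and Ces3a overlapped. Ces2e stood below Ces3a in cornstarch tumour 1 (4858 against 7633 per kb) and above it in cornstarch tumour 2 (7921 against 2355). In fructose tumours the ranges of Ces1c and Ces2e overlapped. Ces2e stood above Ces1c in fructose tumour 1 (4815 against 3646 per kb) and tumour 2 (10074 against 6915). In fructose tumour 3 it stood below (3015 against 21395), so the first rank of Ces1c in that group rests on 1 library. At the other end, Ces2c had the lowest mean per kb in all 4 liver groups (12.4 to 247), without overlap with the gene ranked above it, and Ces1e the lowest in both tumour groups (156 under fructose and 413 under cornstarch), where its range overlapped that of its neighbour.

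**Figure D1:**
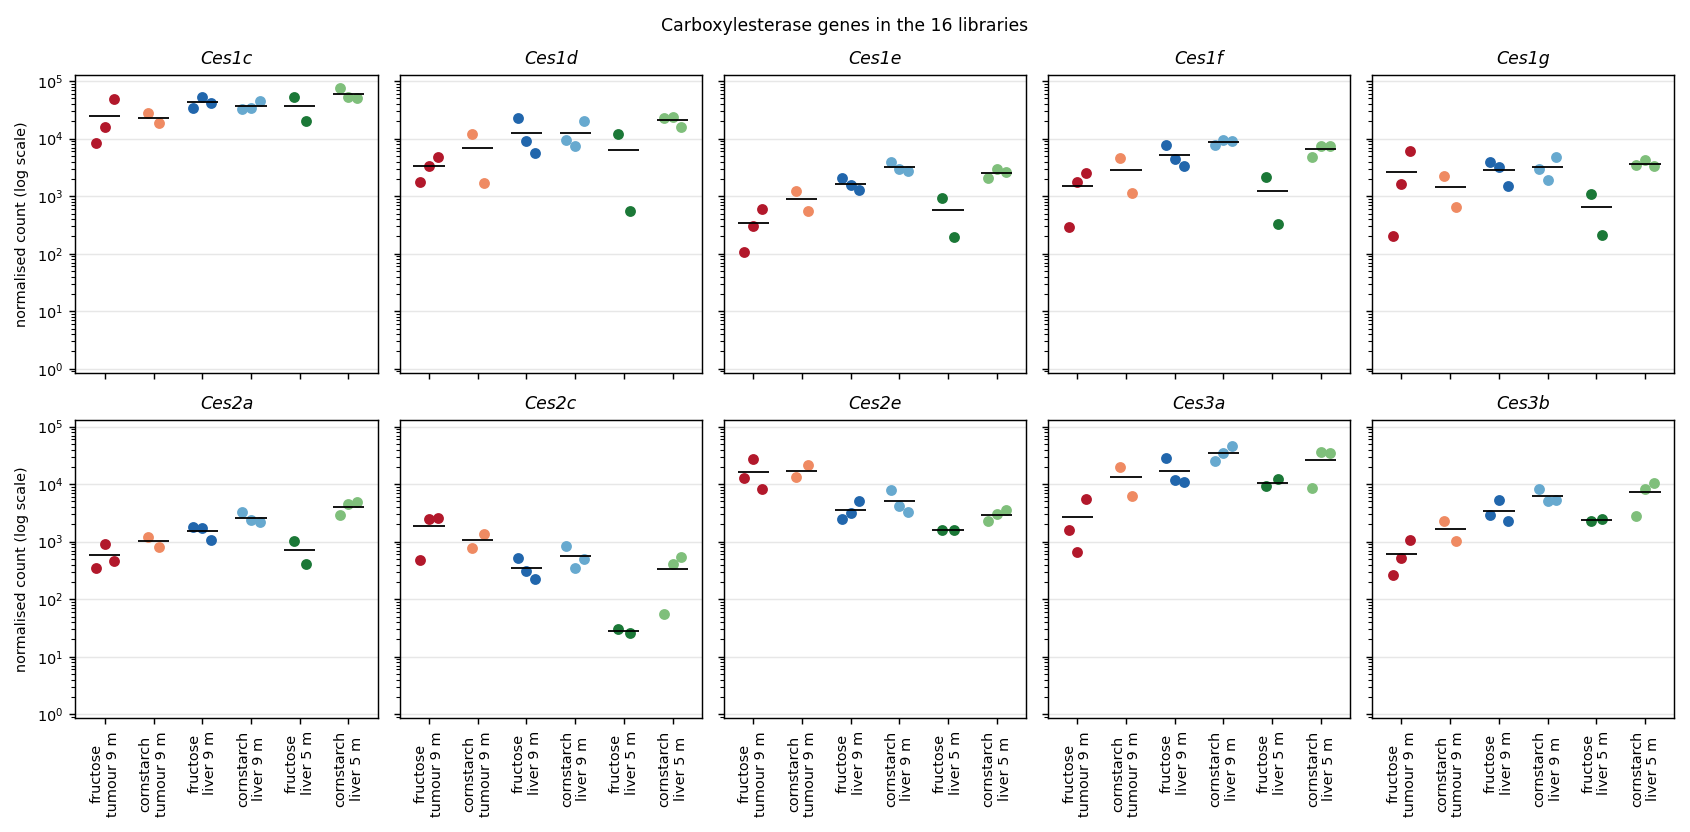
Normalised counts (log scale) of the 10 carboxylesterase genes in each library, with 1 panel per gene; points are libraries, coloured by group, and the bars are group means. Ces2e and Ces2c are the genes whose tumour means lie above the liver means, and Ces2c has its lowest values, 30.6 and 26.3, in the 5-month fructose livers.

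The comparison of tumours with liver at 9 months asked how the esterases differ between the tumours and the liver of DEN-treated mice. The family split: over both diets 5 of the 10 genes fell in tumours (Ces1e, Ces1f, Ces2a, Ces3a and Ces3b), 2 rose (Ces2c and Ces2e) and 3 did not pass the test (Ces1c, Ces1d and Ces1g). Of all 14503 genes tested, 10.5% were called lower and 13.4% higher in this comparison. The median log2 fold change of the 10 genes was -1.50, against -0.01 over all genes tested, and 8 of the 10 values were below 0. Ces2a and Ces2e, of the same subfamily and cluster, changed in opposite directions.

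Ces2e, a Ces2-type esterase, had 12995, 27190.1 and 8137 normalised counts in fructose tumours and 13111 and 21379 in cornstarch tumours, against 2519, 3141 and 5039 in fructose livers and 7959, 4235 and 3260.1 in cornstarch livers. All 5 tumours lay above all 6 livers, with the lowest tumour (8137) close to the highest liver (7959). Ces2e was 3.81-fold higher in tumours (log2 fold change 1.93, SE 0.35, adjusted p = 0.0039). Ces2c, which encodes an inducible enzyme that also hydrolyses long-chain acylcarnitines, had 489.5, 2511 and 2539 normalised counts in fructose tumours and 772 and 1366 in cornstarch tumours, against 527, 305 and 223 in fructose livers and 837, 355 and 509 in cornstarch livers. Its groups overlapped, since 1 tumour of each diet lay within the range of the livers. Ces2c was 2.92-fold higher (log2 fold change 1.55, SE 0.46, adjusted p = 0.0329), a call that was lost without any 1 of 7 of the 11 libraries (adjusted p of 0.0555 to 0.145 in those fits).

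Ces2a, whose enzyme hydrolyses tri- and diglycerides, had 347, 928 and 467 normalised counts in fructose tumours and 1217 and 815 in cornstarch tumours, against 1834, 1742 and 1077 in fructose livers and 3342, 2353 and 2202 in cornstarch livers. Within each diet the tumours lay below the livers, and over both diets they overlapped only in that cornstarch tumour 1 (1217) exceeded fructose liver 3 (1077). Ces2a was 2.71-fold lower in tumours (log2 fold change -1.44, SE 0.26, adjusted p = 0.0041).

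The level per kb of Ces2e relative to Ces2a, taken within each library, was 32.7, 25.6 and 15.2 in fructose tumours and 9.42 and 22.9 in cornstarch tumours. It was 1.20, 1.58 and 4.09 in fructose livers and 2.08, 1.57 and 1.29 in cornstarch livers at 9 months. The tumours did not overlap with the livers. Ces2e thus stood above Ces2a per kb of exon in all 11 libraries of 9 months. The exon length was 2359 bases for Ces2a, whose longest coding transcript has 1960 bases. For Ces2e both lengths were 2699 bases, so the order of the pair at ratios near 1 depends on the length used. The ratio does not depend on the scaling between libraries. At 5 months it was 1.40 and 3.46 in fructose livers and 0.690, 0.601 and 0.628 in cornstarch livers, the one group in which Ces2a was the more abundant of the pair.

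**Figure D2:**
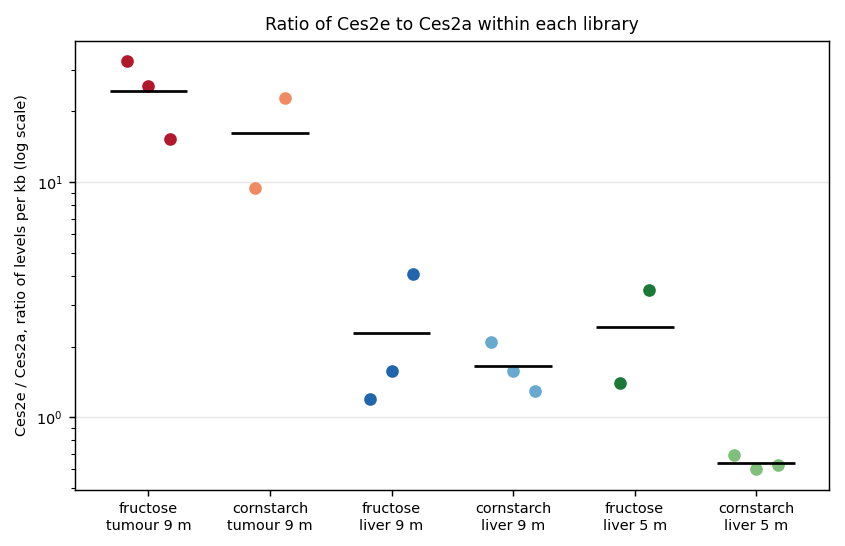
Ratio of the level per kb of Ces2e to that of Ces2a in each library (log scale), by group; points are libraries and bars group means. The 5 tumours lie at 9.42 to 32.7 and all livers at 4.09 or below.

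The promoters of the 5 genes that changed in tumours and had an entry in the RefSeq promoter table (GRCm38.p6) are printed to show how members that moved in opposite directions compare in sequence. Each window runs 5′ to 3′ on the gene's strand, from 250 bases before to 50 bases after the start. Capitals mark AACTTTG, a core of sites of the liver factor HNF4, and TTATGTAA, a D-box of the circadian PAR bZIP factors. These 2 motifs, and the other 3 named below, were chosen after the promoters had been read, both strands were searched, and no base lay in more than 1 motif.
Ces2e (chr8:104926010-104926309, plus strand): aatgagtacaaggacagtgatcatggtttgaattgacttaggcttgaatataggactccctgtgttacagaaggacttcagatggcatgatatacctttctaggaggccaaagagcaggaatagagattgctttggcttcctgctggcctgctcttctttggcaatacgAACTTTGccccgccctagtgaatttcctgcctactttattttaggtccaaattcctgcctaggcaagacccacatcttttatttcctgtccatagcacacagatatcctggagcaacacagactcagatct
Ces2c (chr8:104846818-104847117, plus strand): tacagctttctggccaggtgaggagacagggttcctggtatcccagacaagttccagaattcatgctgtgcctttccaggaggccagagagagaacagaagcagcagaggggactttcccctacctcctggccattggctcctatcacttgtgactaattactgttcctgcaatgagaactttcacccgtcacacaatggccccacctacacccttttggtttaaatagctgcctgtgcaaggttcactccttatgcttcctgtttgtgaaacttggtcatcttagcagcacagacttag
Ces2a (chr8:104733753-104734052, plus strand): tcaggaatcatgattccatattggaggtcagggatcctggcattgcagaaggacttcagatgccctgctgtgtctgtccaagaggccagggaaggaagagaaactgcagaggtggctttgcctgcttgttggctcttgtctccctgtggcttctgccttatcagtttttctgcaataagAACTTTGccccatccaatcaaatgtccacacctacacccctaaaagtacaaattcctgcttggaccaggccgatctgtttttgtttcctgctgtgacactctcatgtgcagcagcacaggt
Ces1e (chr8:93229570-93229869, minus strand): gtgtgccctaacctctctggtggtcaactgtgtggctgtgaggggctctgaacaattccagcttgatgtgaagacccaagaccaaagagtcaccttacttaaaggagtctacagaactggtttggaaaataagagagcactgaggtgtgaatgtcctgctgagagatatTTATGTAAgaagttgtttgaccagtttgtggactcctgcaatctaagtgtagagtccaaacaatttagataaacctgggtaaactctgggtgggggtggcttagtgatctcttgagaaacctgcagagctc
Ces3b (chr8:105083505-105083804, plus strand): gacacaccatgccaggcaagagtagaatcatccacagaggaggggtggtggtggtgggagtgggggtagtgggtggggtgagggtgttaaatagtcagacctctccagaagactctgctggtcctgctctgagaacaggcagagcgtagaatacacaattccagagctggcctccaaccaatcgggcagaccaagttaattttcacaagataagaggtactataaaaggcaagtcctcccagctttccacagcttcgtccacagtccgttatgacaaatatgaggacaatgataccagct

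AACTTTG was found in Ces2e, 81 bases before the start, and in Ces2a, 71 bases before it, that is in 1 member that rose and 1 that fell in tumours. It also lies 93 bases before the start of Ces2f, a family gene listed at 0 in all 16 libraries, and in 3.83% of all 32851 promoters of the table. Its exact letters were not found in the Ces2c window, which holds AACTTTC, with another last letter. TTATGTAA was found in 3 of the 7 member promoters in the table, those of Ces1c (94 bases before the start), Ces1e (81) and Ces1g (232), and in 0.938% of all promoters. The non-members Ces1a and Ces1b of the same cluster carry it as well. The half-site AGGTCA, bound by nuclear receptors, was found in Ces2a (16.3% of all promoters) and the AP-1 site TGANTCA in 0 of the 7 (7.81%). The TATA box letters TATAAA were found on the gene's strand in Ces3b, 30 bases before the start. In Ces1g they lay on the opposite strand (13.6% of all promoters, either strand). A match is a description of letters and was tied to no binding data.

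Among the Ces1 genes, Ces1e and Ces1f were lower in tumours. Ces1e, which encodes egasyn, the esterase that holds beta-glucuronidase in the endoplasmic reticulum, had 109, 307 and 609 normalised counts in fructose tumours and 1248 and 558 in cornstarch tumours, against 2043, 1580.1 and 1268 in fructose livers and 3927, 2947 and 2709.8 in cornstarch livers. The groups did not overlap, by a narrow margin between cornstarch tumour 1 (1248) and fructose liver 3 (1268). Ces1e fell 4.69-fold (log2 fold change -2.23, SE 0.39, adjusted p = 0.0034). Ces1f, also known as triacylglycerol hydrolase 2 (TGH-2), had 295, 1746 and 2507 normalised counts in fructose tumours and 4644 and 1132 in cornstarch tumours, against 7719, 4396 and 3392 in fructose livers and 7779.96, 9377 and 9294 in cornstarch livers. It fell 4.13-fold (log2 fold change -2.05, SE 0.55, adjusted p = 0.0228), with adjusted p = 0.127 without cornstarch tumour 2 and 0.0516 without fructose liver 1.

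Ces1c, Ces1d and Ces1g did not pass the test. Ces1c had 8469, 16063 and 49700.5 normalised counts in fructose tumours and 27621 and 19107 in cornstarch tumours, against 32679 to 52664 in the 6 livers (log2 fold change -0.92, SE 0.40, adjusted p = 0.123). Fructose tumour 3 was the tumour within the liver range, and without it the log2 fold change was -1.26 with adjusted p = 0.0063. That was the 1 call of Ces1c among 23 alternatives, over which the log2 fold change was -1.26 to -0.52. Ces1d, the triacylglycerol hydrolase TGH that mobilises stored triglyceride for VLDL, had 1741, 3394 and 4874 normalised counts in fructose tumours and 11894 and 1703 in cornstarch tumours, against 23115, 8962 and 5602 in fructose livers and 9325, 7529.6 and 20527 in cornstarch livers (log2 fold change -1.55, SE 0.56, adjusted p = 0.0677). Its value in cornstarch tumour 1 lay within the liver range. Without that library, which leaves 1 cornstarch tumour, the log2 fold change was -2.25. Over the fits without a single library it was -2.25 to -0.85. Ces1g, an esterase that limits fat synthesis in mouse liver, ranged from 202 to 6223 normalised counts in the tumours and from 1497 to 4784 in the livers. Fructose tumour 3 had the highest Ces1g level and fructose tumour 1 the lowest of all 16 libraries.

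Both Ces3 genes, which encode liver esterases of the third mouse subfamily, fell in tumours. Ces3b had 259, 522 and 1080.5 normalised counts in fructose tumours and 2268 and 1018 in cornstarch tumours, against 2864, 5233 and 2286 in fructose livers and 8390.4, 5175 and 5273 in cornstarch livers. All tumours lay below all livers, by a narrow margin between cornstarch tumour 1 (2268) and fructose liver 3 (2286). Ces3b fell 4.98-fold (log2 fold change -2.32, SE 0.38, adjusted p = 0.0023). Ces3a had 1629, 661 and 5624 normalised counts in fructose tumours and 20051 and 6187 in cornstarch tumours, against 28237, 11978 and 10760.4 in fructose livers and 25041, 34724 and 45741 in cornstarch livers. It fell 5.08-fold (log2 fold change -2.35, SE 0.54, adjusted p = 0.0116), with adjusted p = 0.071 without cornstarch tumour 2, and cornstarch tumour 1 lay within the range of the fructose livers. Genes of a list of male-biased liver genes moved the same way: 10 of 14 fell in tumours, with a median log2 fold change of -2.60, and their summed level was 10879 to 26681 in fructose tumours and 62324 to 68025 in cornstarch tumours, against 20095 to 78407 in fructose livers and 101698 to 167351 in cornstarch livers. None of these 14 genes was at 0 throughout a group. Of 15 female-biased liver genes tested, 3 rose and 0 fell in tumours, with 9 values below 0 and a median of -0.86. The part of both lists in the fall of Ces3a and Ces3b was not tested.

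**Figure D3:**
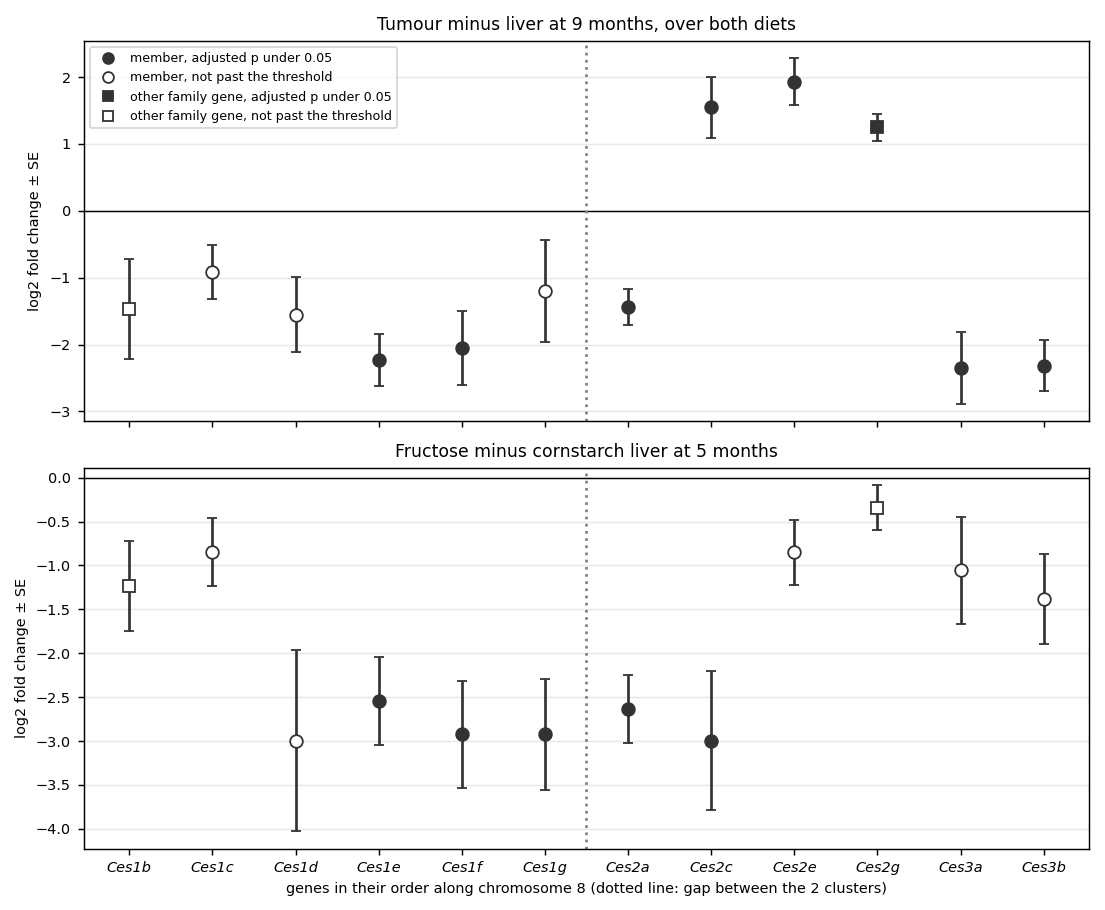
Log2 fold change ± SE of the 10 genes and of the family genes Ces1b and Ces2g, in their order along chromosome 8, for tumour minus liver over both diets (upper panel) and fructose minus cornstarch liver at 5 months (lower panel); filled symbols passed the test and squares are not among the 10 genes. In the upper panel Ces2c, Ces2e and Ces2g, which lie next to each other among the genes shown, are above 0 and all others below, while in the lower panel all values are below 0.

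Leaving out single libraries gave 4 to 8 changed members over both diets, with 4 without cornstarch tumour 2, and the calls of Ces1e, Ces2a, Ces2e and Ces3b held in each of these fits. Scaling by the hepatocyte markers, which raised the fructose tumours by 0.49 to 0.70 on the log2 scale, left 5 genes lower and 2 higher. Over all genes tested, 13.4% were called higher and 10.5% lower in tumours. Of the 14 hepatocyte markers tested, 1 rose and 1 fell in tumours. Stellate cell and fibroblast markers had 4 of 12 called higher and 1 lower, with sums of 6658 to 11906 in fructose tumours and 9210 to 9874 in cornstarch tumours, against 6786 to 8048 in fructose livers and 3939 to 4910 in cornstarch livers. Macrophage and Kupffer cell markers had 2 of 15 called higher and 3 lower, and the part of these cells in the esterase values was not tested. Under fructose alone 6 genes passed the test, with Ces1e, Ces2a, Ces3a and Ces3b lower (4.46% of all genes were called lower) and Ces2c and Ces2e higher (5.75% called higher). Ces2c lay at the threshold (log2 fold change 2.15, adjusted p = 0.0496) and was called in 9 of 23 alternatives, with adjusted p of 0.0004 to 0.151. That count was 1 (Ces3b) without fructose liver 1, 0 without fructose liver 2 and 3 without fructose tumour 2. Under cornstarch alone 0 members were called by limma (5.71% of all genes), although 5 had an unadjusted p under 0.05, edgeR also called 0 and DESeq2 called 4. Because the spread was estimated over all 4 groups, leaving out a fructose tumour also moved this count, to 3, 2 and 3 without fructose tumour 1, 2 and 3. Each gene's log2 fold change had the same sign under both diets, for example 2.06 under fructose (SE 0.47, adjusted p = 0.0224) and 1.81 under cornstarch (SE 0.53, adjusted p = 0.0714) for Ces2e. For Ces3b they were -2.62 under fructose (SE 0.51, adjusted p = 0.0118) and -2.01 under cornstarch (SE 0.57, adjusted p = 0.065). These comparisons within a diet use the same libraries as the one over both diets. The difference of the tumour effect between the diets was called for 0 of the 10 genes by limma (0% of all genes), and 0 had an unadjusted p under 0.05. edgeR and DESeq2 also called 0.

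The make-up of the family differed in the same libraries. The 3 Ces2 genes took 49.3%, 53.2% and 12.7% of the summed level per kb of the 10 genes in fructose tumours and 16.8% and 41.3% in cornstarch tumours, against 4.52%, 5.28% and 8.08% in fructose livers and 11.6%, 6.63% and 4.24% in cornstarch livers at 9 months. All 5 tumours lay above all 6 livers. The Ces3 pair took 6.87%, 2.10% and 7.54% in fructose tumours and 25.0% and 12.8% in cornstarch tumours, against 27.6%, 17.1% and 16.7% in fructose livers and 31.3%, 37.1% and 35.0% in cornstarch livers. The 3 fructose tumours had the lowest Ces3 shares of these 11 libraries. The summed level per kb was 10500.3, 21718 and 33979.9 in fructose tumours and 34048 and 21431 in cornstarch tumours, and 29945 to 55673 in the livers, so that only 2 tumours reached the range of the livers.

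**Figure D4:**
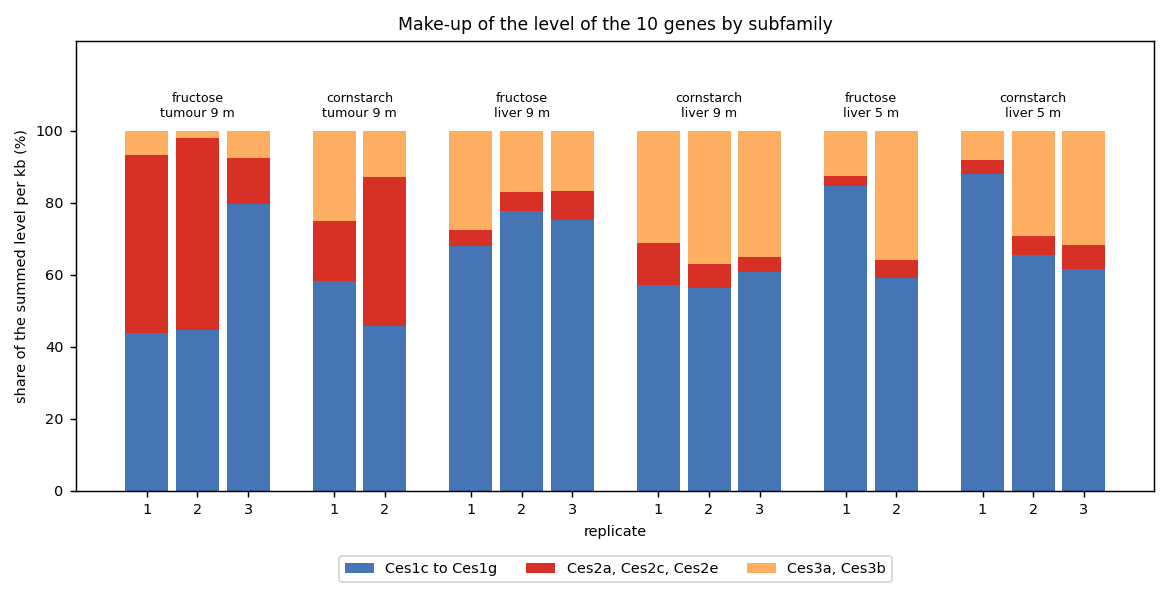
Share (%) of the summed level per kb of the 10 genes that was taken by the Ces1, Ces2 and Ces3 genes in each library, by group; each bar is 1 library. The Ces2 share is 12.7% to 53.2% in the 5 tumours and at most 11.6% in the 11 livers.

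Of the 10 further family genes, 6 were tested in tumours against liver, and 1, Ces2g, rose, where 13.4% of all genes tested were called higher. It had 1904, 2447 and 1947 normalised counts in fructose tumours and 1577 and 2982 in cornstarch tumours, against 705, 949.6 and 911 in fructose livers and 1291, 702 and 926 in cornstarch livers, with no overlap (log2 fold change 1.25, SE 0.20, adjusted p = 0.0023). Ces2g lies between Ces2e and Ces3a. Ces1b, next to Ces1c, had 51.3 to 1288 normalised counts in tumours and 441 to 1289 in livers and did not pass the test (adjusted p = 0.18). Ces2f and Ces5a were listed at 0 in all 16 libraries.

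Genes of other fixed lists were followed in the same comparison, in which 13.4% of all genes tested were called higher and 10.5% lower. Of the 8 chaperone and retention genes of the secretory pathway that reached the filter in the livers alone, 5 rose and 0 fell in tumours, with a median log2 fold change of 0.59. Among them were Kdelr2, a KDEL receptor, at 1905 ± 219 in tumours and 1287 ± 236 in livers (SD, n = 5 and 6, log2 fold change 0.60, SE 0.11, limma adjusted p = 0.0032), and the chaperone gene Hspa5 (log2 fold change 1.07). Kdelr3, another KDEL receptor gene, reached the filter only through the tumours and is not in this count, with 192 ± 96.6 normalised counts in tumours and 7.42 ± 7.02 in livers (SD, n = 5 and 6). Of the 23 other esterases and lipases tested, 3 rose and 9 fell, with Abhd2, a lipid hydrolase, at 13072 ± 4552 in tumours and 3616 ± 1802 in livers (SD, n = 5 and 6, log2 fold change 1.90, SE 0.20, limma adjusted p = 0.00027). Afmid, the formamidase of tryptophan breakdown (log2 fold change -1.51), and Bphl, whose human enzyme activates the prodrug valacyclovir (-0.93), were lower.

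Of the 15 genes of VLDL assembly and lipid droplets, 3 rose and 3 fell in tumours. The droplet proteins Plin5 (log2 fold change -1.40) and Plin4 (-2.44) were lower and Hilpda, an inhibitor of triglyceride lipase, was higher (1.47). Of the 20 genes of the nuclear receptors CAR and PXR with their targets, 2 rose and 3 fell: Cyp2c29, a cytochrome P450, had 2367 ± 1973 normalised counts in tumours and 10386 ± 854 in livers (SD, n = 5 and 6, log2 fold change -2.52, SE 0.49, limma adjusted p = 0.0052), Sult1d1 was lower (-0.94) and the glutathione transferase gene Gsta1 was higher (2.92). Of the 14 liver factors and their partners, 1 rose and 4 fell, with the bile acid receptor gene Nr1h4 (-0.97) and Cebpa (-0.58) lower and Foxa3 higher (0.98). Of all 14503 genes tested in this comparison, 13.4% were called higher and 10.5% lower, so small counts in such lists are not particular to them. The median over all genes was -0.01, and the medians of these 3 lists were 0.15, -0.45 and -0.13.

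In tumours the diets were compared to ask whether fructose altered the esterases of the tumours themselves. No member was called by limma, edgeR or DESeq2 (0% of all genes by limma, with 1178 genes at an unadjusted p under 0.05), and 4 members had an unadjusted p under 0.05 in limma. Ces3a, the member with the smallest p, had 1629, 661 and 5624 normalised counts in fructose tumours against 20051 and 6187 in cornstarch tumours. Its log2 fold change of -2.61 (SE 0.80) did not pass the test (adjusted p = 0.46). The median log2 fold change of the 10 genes was -0.73, with 8 of 10 values below 0. All 14 male-biased genes were also lower in fructose tumours than in cornstarch tumours, with a median of -2.98 and 0 called. Of the 15 female-biased genes tested, 10 had values above 0 and 5 below, with a median of 0.70 and 0 called. The part of both lists in the Ces3a values was not tested.

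At 5 months the diets were compared in liver to ask which esterases fructose altered at the earlier age. Of the 10 genes 5 fell under fructose (Ces1e, Ces1f, Ces1g, Ces2a and Ces2c), 0 rose and 5 did not pass the test. All 10 log2 fold changes were below 0, with a median of -2.59 against -0.01 over all genes. Of all 14317 genes tested, 4.48% were called lower. Every member called here was at least 5.83-fold lower under fructose.

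Ces1g had 1108 and 211 normalised counts in fructose livers, against 3545, 4209 and 3346 in cornstarch livers, and was 7.59-fold lower (log2 fold change -2.92, SE 0.63, adjusted p = 0.0122). Ces1f had 2159.9 and 334 in fructose livers, against 4892, 7354 and 7485 in cornstarch livers, and was 7.60-fold lower (log2 fold change -2.93, SE 0.61, adjusted p = 0.0109). Ces1e had 949 and 194 in fructose livers, against 2057, 2957 and 2603 in cornstarch livers (log2 fold change -2.54, SE 0.51, adjusted p = 0.0084). In each of these 3 genes the groups did not overlap, and fructose liver 2 lay far below fructose liver 1.

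Ces2a had 1012 and 404 normalised counts in fructose livers, against 2878, 4455 and 4904 in cornstarch livers, and with a log2 fold change of -2.63 (SE 0.39, adjusted p = 0.0020) it had the smallest p of the 10 genes. Ces2c had 30.6 and 26.3 in fructose livers, against 56.3, 409 and 547 in cornstarch livers (log2 fold change -3.00, SE 0.80, adjusted p = 0.0301). The low cornstarch value of Ces2c is that of the XX library. Its call was lost when any 1 of 4 of the 5 libraries at 5 months was left out (adjusted p of 0.0915 to 0.186). The third Ces2 gene, Ces2e, had 1616 and 1603 in fructose livers, against 2273, 3063 and 3523 in cornstarch livers, a log2 fold change of -0.85 (SE 0.37) that did not pass the test (adjusted p = 0.152).

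Ces1d had the widest spread, at 11999 and 557 normalised counts in fructose livers, against 23363, 23419 and 16138 in cornstarch livers (log2 fold change -3.00, SE 1.03, adjusted p = 0.0771). Ces1c had 53211 and 20428 in fructose livers, against 75821, 53849.8 and 51046 in cornstarch livers (adjusted p = 0.178). Ces3a had 9147 and 12245 in fructose livers, against 8451, 36414 and 34648 in cornstarch livers, and Ces3b had 2271 and 2516 in fructose livers, against 2758, 8316 and 10454 in cornstarch livers. In both Ces3 genes the XX cornstarch liver was near the fructose livers and far below the other cornstarch livers.

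The 5 calls rested in part on fructose liver 2, the lower of the pair in 8 of the 10 genes. Without it 2 genes passed the test (Ces1e and Ces2a), with Ces1f at a log2 fold change of -1.58 (adjusted p = 0.0699) and Ces1g at -1.73 (adjusted p = 0.133). Without the 2 XX libraries 7 genes passed, since Ces1d (log2 fold change -5.12, adjusted p = 0.0085) and Ces3b (-1.89, adjusted p = 0.0455) joined the 5. That fit leaves 1 fructose liver at 5 months, which is assumed to vary like the other groups.

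Other cells moved with the diet at this age. Of all 14317 genes tested, 2119 were called in either direction, 641 of them lower and the rest higher. All 13 neutrophil markers were higher under fructose, with a summed level of 63422 to 93258 normalised counts in fructose livers and 138 to 1031 in cornstarch livers, where 1 of them was at 0. Of these 13, 4 reached the filter only through the fructose livers, and the other 9 were all called higher as well. Markers of red cell precursors summed to 15639 to 20867 in fructose livers and 2951 to 4260 in cornstarch livers, with 6 of 7 called higher and a median log2 fold change of 3.11. Stellate cell and fibroblast markers summed to 8963 to 10176 in fructose livers and 4607 to 5447 in cornstarch livers, with 6 of 12 called higher. Macrophage and Kupffer cell markers summed to 28656 to 32122 in fructose livers and 9967 to 17828 in cornstarch livers, with 5 of 15 called higher. Hepatocyte markers were not lower: 3 of 14 were called higher and 0 lower, with a mean log2 level of 16.48 to 16.53 in fructose livers and 16.16 to 16.49 in cornstarch livers. Scaled by the hepatocyte markers, the same count of 5 members was lower. The part of the other cells in the fall of the esterases was not tested.

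Over all 14317 genes tested at 5 months, 2119 were called in either direction and 4.48% were called lower. Of the fixed lists, the 23 other esterases and lipases had 1 called higher and 6 called lower at this age, with a median log2 fold change of -0.48. The 20 CAR and PXR genes had 0 called higher and 3 lower, with a median of -0.98 and 19 of 20 values below 0. The 15 VLDL and droplet genes had 1 called higher and 1 lower, the 14 liver factors 0 and 1, and the 8 secretory pathway genes tested 0 and 0. Of the 4 further family genes tested at this age, 0 were called by limma, and Ces1b had 951 and 331 normalised counts in fructose livers, against 1728, 1205 and 1113 in cornstarch livers (adjusted p = 0.133).

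In the 9-month livers the same comparison of diets called 0 of the 10 genes by limma (2.54% of all genes), 0 by edgeR and 0 by DESeq2, and 1 had an unadjusted p under 0.05 in limma. Of the 10 log2 fold changes 9 were below 0, with a median of -0.73. Ces2a, the gene with the smallest p, had 1834, 1742 and 1077 normalised counts in fructose livers, against 3342, 2353 and 2202 in cornstarch livers, without overlap (log2 fold change -0.78, SE 0.35, adjusted p = 0.237). Ces1e, at 2043, 1580.1 and 1268 in fructose livers against 3927, 2947 and 2709.8 in cornstarch livers (log2 fold change -0.98, SE 0.45, adjusted p = 0.255), and Ces1f did not overlap either. Ces3a had 28237, 11978 and 10760.4 in fructose livers, against 25041, 34724 and 45741 in cornstarch livers, and fructose liver 1 was the library inside the cornstarch range (log2 fold change -1.15, SE 0.55, adjusted p = 0.269). All 14 male-biased genes were lower under fructose at this age (median log2 fold change -1.89, 0 called) and all 16 female-biased genes higher (median 2.22, 0 called), and their part in the values of Ces2a, Ces1e and Ces3a was not tested. Macrophage and Kupffer cell markers summed to 20857 to 29919 normalised counts in fructose livers and 4361 to 12029 in cornstarch livers, with 9 of 15 called higher and a median log2 fold change of 1.53. Stellate cell and fibroblast markers summed to 6786 to 8048 in fructose livers and 3939 to 4910 in cornstarch livers, with 4 of 12 called higher. The part of these cells in the esterase values at 9 months was not tested either.

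Whether the diet effect differed between the ages was tested directly. The difference of the diet effect, at 9 minus at 5 months, was called for 0 of the 10 genes by limma (0.698% of all genes) and by edgeR and for 1 by DESeq2, and 4 had an unadjusted p under 0.05. It was above 0 for 9 of the 10, largest for Ces1d (log2 2.89, SE 1.38, adjusted p = 0.47) and with the smallest p for Ces2a (1.86, SE 0.52, adjusted p = 0.176). Without the 2 XX libraries 3 members were called. So the 5 calls at 5 months and the 0 at 9 months are not by themselves a shown difference between the ages.

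The ages were also compared within each diet. Under fructose all 10 genes had higher mean log2 levels in the 9-month livers than in the 5-month livers, with a median log2 fold change of 1.57, and 1 passed the test (0.664% of all genes were called higher). This was Ces2c, at 527, 305 and 223 normalised counts at 9 months against 30.6 and 26.3 at 5 months (log2 fold change 3.49, SE 0.80, adjusted p = 0.0386). Of the members that missed the threshold, Ces1f (2.52, adjusted p = 0.0523), Ces1g (2.47, adjusted p = 0.0616) and Ces1e (1.89, adjusted p = 0.0741) came nearest to it. DESeq2 called 6 genes here, 6 passed without the 2 XX libraries and 4 without fructose liver 1 of 5 months, and 0 passed without fructose liver 2 of 5 months, without any 1 of the fructose livers of 9 months or without cornstarch liver 3 of 9 months. This comparison shares the 5-month fructose livers with the comparison of diets at 5 months. Markers of other cells differed with age in the same libraries. Of all 14317 genes tested, 498 were called in either direction, 95 of them higher and the rest lower. Neutrophil markers summed to 1514 to 4479 normalised counts at 9 months and 63422 to 93258 at 5 months, with 12 of 13 called lower (8 of the 9 that reached the filter without the 5-month fructose livers). Markers of red cell precursors summed to 3287 to 5204 at 9 months and 15639 to 20867 at 5 months, with 4 of 7 called lower. Of the 14 hepatocyte markers 3 were called lower and 0 higher, with a mean log2 level of 15.85 to 16.14 at 9 months and 16.48 to 16.53 at 5 months. The part of these cells in the esterase values was not tested. Under cornstarch 0 genes were called by limma, edgeR or DESeq2 (0% of all genes by limma), 0 had an unadjusted p under 0.05 in limma, and 5 of the 10 values were above 0.

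The 3 genes whose group means spanned the widest range were Ces2c (5.64 on the log2 scale), Ces3a (4.23) and Ces3b (3.56). Over the 16 libraries, the genes most like each of them were found by the root mean square difference of log2 levels after each gene's mean was subtracted, among 10942 genes. For Ces2c these were Prss8 (0.95), which encodes a membrane protease, Gsta4 (1.02), a glutathione transferase, and Osbpl3 (1.06), an oxysterol-binding protein, while the nearest of the other members was Ces2e (1.18). For Ces3a they were Nox4 (0.49), an NADPH oxidase, Slc22a30 (0.61), a solute carrier, and Fn3k (0.62), a kinase of fructosamines, and Ces3b lay at 0.75. For Ces3b they were Fn3k (0.49) and the cytochrome P450 genes Cyp4f14 (0.52) and Cyp2c23 (0.53). The libraries share depth, diet and tissue groups, and the distances are a description with no test.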

How the data were processed

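A TruSeq kit for mRNA was used, per the labels. The deposited signal values are 1 table of counts per gene that the authors had divided by 1 factor per library. FastQC, Trim Galore, STAR, RSEM, DESeq2 and GRCm38 were used per the submitters' processing notes; versions, read length and strandedness are not given in the sources used here. Values were whole multiples of 1 step per library, so reads were recovered, and 100% came out whole within 0.01, with 11232461 to 38377674 reads per library. Depth limits the precision of Ces2c in the 5-month fructose livers most.

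With limma 3.58.1 (R 4.3.3), a trended variance and a mean per group were fitted to log2(value + 1), over the 11 livers for diet and age and over the 11 libraries of 9 months for tumours. Genes that reached 10 in 2 or more libraries of a fit were tested, with Benjamini and Hochberg adjustment over all of them. edgeR 4.0.16 and DESeq2 1.42.0 were run on the recovered reads, and edgeR called 5, 0 and 7 members for diet at 5 months, diet at 9 months and tumour against liver over both diets. The other alternatives changed the pseudocount, filter, scaling, moderation or libraries. Where 1 library was left in a group, it was taken to vary as other groups do. Simulated data served to test the fits.

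Positions are from GENCODE on GRCm38, which held 46574 of the 47069 gene IDs (98.9%). Promoters are from RefSeq (GRCm38.p6), which listed 7 of the 10 members, without Ces1d, Ces1f and Ces3a. The labels give no replicate numbers, so replicates carry numbers in the order of the samples. The members, lists and comparisons were chosen with earlier results of these data known. All members are named, and of each list the 3 genes with the smallest p in tumours against liver, which is also the comparison with the most members called. Pattern neighbours are the 3 nearest genes with a mean of at least 50.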

Additional observations from a re-analysis of the deposited data

How the results depend on the processing

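The counts of changed members were recomputed under other pseudocounts, filters, scalings, tools, fits and sets of libraries. For diet in liver at 5 months (5) they were 4 to 7, and for tumour against liver over both diets (7) they were 6 to 8, outside the fits without a single library. For tumour against liver under fructose (6) they were 5 to 8 there, with 5 under a pseudocount of 0.5, no filter, hepatocyte marker scaling, 1 fit of all 16 libraries, edgeR or robust moderation and 8 with DESeq2. For 9 against 5 months under fructose the main count of 1 became 3 with a pseudocount of 10, quantile normalisation or hepatocyte marker scaling, 2 with TMM or upper quartile scaling, 6 with DESeq2 or without the 2 XX libraries and 0 with robust moderation. For the difference of the diet effect between ages the count of 0 became 1 with DESeq2 and 3 without the 2 XX libraries. For tumour against liver under cornstarch 0 became 1 with quantile normalisation, hepatocyte marker scaling or 1 fit of all 16 libraries, and 4 with DESeq2. The cause of these shifts was not tested.

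Leaving out single libraries gave 2 to 7 members for diet at 5 months, 4 to 8 for tumour against liver over both diets, 0 to 6 for it under fructose, 0 to 3 under cornstarch, 0 to 4 for age under fructose, 0 to 2 for the difference between ages, and 0 to 0 for the other 4 comparisons. Over all 100 pairs of a member and a comparison, 2350 values were had under alternatives, of which 2172 kept direction and side of the threshold, 57 lost the call, 58 gained one and 63, from 21 of the pairs, reversed. The reversals were of 0 called values. For 50 pairs, all those of 4 comparisons (diet at 5 months, tumour against liver over both diets and under fructose, age under fructose) and 10 of the other 6, 3 of 1177 values reversed: Ces1g in tumours against liver under fructose (log2 fold change 0.25 without fructose tumour 1, range without single libraries -2.22 to 0.25), and Ces1c (-0.35, range -0.35 to 1.04) and Ces1d (-0.19, range -0.19 to 4.23) in 9 against 5 months under fructose without fructose liver 2 of 5 months. No paired analysis was possible because the labels carry no replicate numbers.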

Other observations

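The 2 XX livers at 5 months also differed from the XY livers of their diet in several esterases, as single libraries with no test. Under cornstarch, Ces3a stood at 8451 normalised counts in the XX liver and at 36414 and 34648 in the XY livers, Ces3b at 2758 in the XX liver and at 8316 and 10454 in the XY livers, and Ces2c at 56.3 in the XX liver and at 409 and 547 in the XY livers. Ces1c was higher in the XX liver, at 75821 against 53849.8 and 51046 in the XY livers. Under fructose, Ces1d stood at 11999 in the XX liver and 557 in the XY liver, while Ces3a stood at 9147 in the XX liver and 12245 in the XY liver.

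The other family genes, leaving out Ces1b and Ces2g, were low or listed at 0. Ces4a ranged from 3.48 to 42.8 normalised counts over the 16 libraries, Ces2b from 0 to 38.8, Ces2h from 0 to 12.5, Ces1a from 0 to 7.64 and Ces1h from 0 to 4.35.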
